A study of Mus musculus with 8 samples.

Results

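Amino acids and small peptides enter the intestinal epithelium through solute carriers, and the transcripts described here are those of 8 families of such carriers (Slc1a, Slc3a, Slc6a, Slc7a, Slc15a, Slc36a, Slc38a and Slc43a). Genes were taken by mouse symbol, including Slc6a20a and Slc6a20b, where the deposited value was 10 or more in at least 4 libraries. Of 60 genes with such a symbol 39 passed, among 12906 genes that passed the same filter and 23318 in every file. The choice used no difference between groups, but Slc6a3, Slc1a2 and Slc38a4 reached the filter through the fraction in which they are high, with a mean below 10 in the other, so their calls were largely fixed by the filter.

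The libraries are total RNA from epithelial cells of mouse small intestine, sorted by flow cytometry on CD24, a surface glycoprotein. All cells had been depleted of those carrying CD45, the leukocyte antigen, and of those bound by the Ulex europaeus lectin, which recognises fucosylated sugars. The CD24Mid fraction, called CD24low elsewhere in the series' text, has 4 libraries with title numbers 1, 3, 5 and 7, and the CD24Neg fraction has 4 with title numbers 2, 4, 6 and 8, described as biological replicates. The sources used here do not give strain, age, sex or any pooling of mice. In bulk RNA of sorted cells, fewer cells of a type and less RNA per cell cannot be told apart.

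An absorptive cell takes up free amino acids at its brush border with sodium-driven or exchange carriers, and takes up dipeptides and tripeptides with a proton-driven carrier. It passes amino acids to the blood through exchangers and facilitated carriers of the basolateral membrane. Several exchangers are heterodimers in which a heavy chain (Slc3a1 or Slc3a2) carries a light chain of the Slc7 family to the membrane, and the light chain moves the substrate. Dividing cells in many tissues rely on another set, with the glutamine exchanger Slc1a5, the leucine exchanger Slc7a5 and the arginine carrier Slc7a1.

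Values are normalised expression values per gene as deposited, given for CD24Mid libraries 1, 3, 5 and 7 and for CD24Neg libraries 2, 4, 6 and 8 in that order. They are not divided by gene length. Fold changes are CD24Neg minus CD24Mid on the scale of log2(value + 0.5), with the standard error (SE), and adjusted p-values are from limma over all 12906 genes with a threshold of 0.05. The 4 CD24Neg libraries were less precise at low values, since 1 read was worth an estimated 1.07 to 1.77 units there and 0.586 to 0.7 in CD24Mid. Estimated depth ran from 12.4 to 20.6 M reads (CD24Neg) and from 17.4 to 19.5 M (CD24Mid), if the smallest even step between low values is 1 read.

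Epithelial markers were high in both fractions. Epcam was at 18928 ± 1772 (SD, n = 4) in CD24Mid and 20037 ± 1309 in CD24Neg. Of 7 epithelial markers 3 were higher in CD24Neg (Vil1, which encodes the microvillus protein villin, at 7369.9 ± 1237 against 47069 ± 7919, and Krt8 and Cldn7), 1 was lower (Krt18, log2 -0.65, limma adjusted p = 0.0285) and 3 did not pass. Mitochondrially encoded transcripts took 8.03 to 9.1% of the summed values in CD24Mid and 28.3 to 37.4% in CD24Neg. Markers of some other cells moved with the fractions as well. The summed level of 9 leukocyte markers ran from 195.8 to 450 in CD24Mid and from 466 to 7811 in CD24Neg, highest in libraries 2 and 8, and that of 5 B and plasma cell markers was 2886 to 7470 against 182 to 402. Goblet cell markers (5 genes) summed to 47350 to 74360 against 181900 to 504200, and enteroendocrine markers (5 genes) to 3338 to 7525 against 887.5 to 1189. The enteroendocrine marker Cck did not pass (log2 0.14, limma adjusted p = 0.572). Paneth markers (5 genes) summed to 1126 to 2719 against 990 to 3831, with 1 higher, 1 lower and 3 not called. Among 3 tested tuft markers 1 was higher, 1 lower and 1 not called. The part of these cells in the transporter differences was not tested, and without libraries 2 and 8 the transporter calls were 20 higher and 13 lower.

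The transporter transcripts split into a set that was much higher in CD24Neg and a set that was much lower. Of the 39 genes 20 were higher in CD24Neg, 12 were lower and 7 did not pass, so 82.1% were called, where 68.3% of all tested genes were (34% higher and 34.3% lower). Of the 39, 10 differed by more than 10-fold, 7 of them upward, where 5.7% and 3.15% of all tested genes did. Without Slc6a3, Slc1a2 and Slc38a4, admitted by the fraction in which they are high, 19 of 36 were higher and 10 lower, and 7 differed by more than 10-fold, 6 of them upward. In 32 of the 39 (82.1%) every library of one fraction lay above every library of the other, against 63.8% of all tested genes. The median log2 fold change was 0.46, against -0.02 over all tested genes. With libraries scaled to their totals without mitochondrially encoded genes, 17 were higher and 16 lower and the median was -0.01, while that of all genes moved to -0.48, so the small changes below depend on the scaling. The 39 genes together took 0.268% ± 0.0181 of the summed values outside mitochondrially encoded genes in CD24Mid and 0.582% ± 0.0733 in CD24Neg. This share is taken within each library, on the same total as the last scaling, and the most abundant genes weigh most in it.

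**Figure D1:**
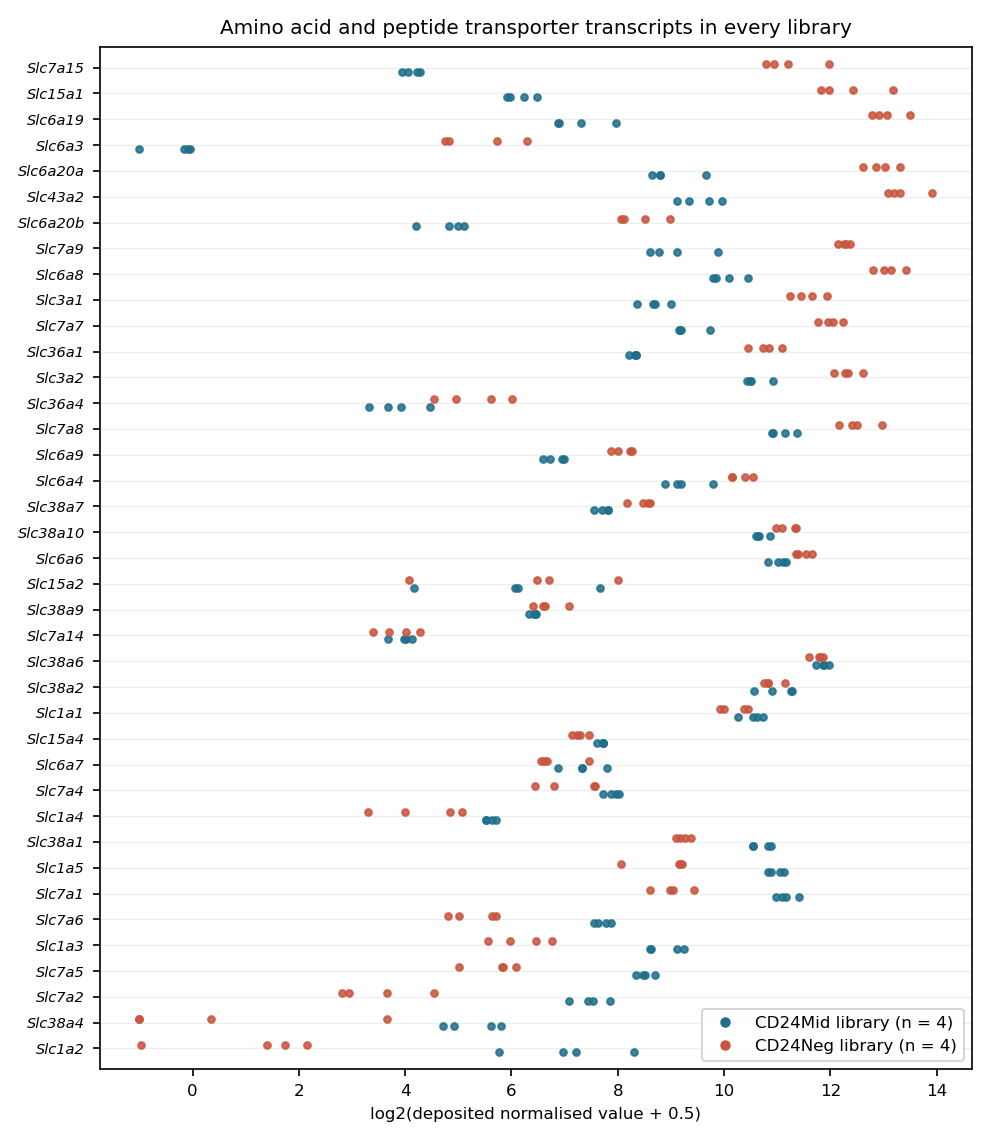
Level of each of the 39 transcripts in every library, on the scale of log2(value + 0.5), ordered by fold change with the largest increase in CD24Neg at the top. Blue points are the 4 CD24Mid libraries and red points the 4 CD24Neg libraries; the colours are apart in 32 genes, and the 7 genes with overlap lie in the middle of the order.

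**Figure D2:**
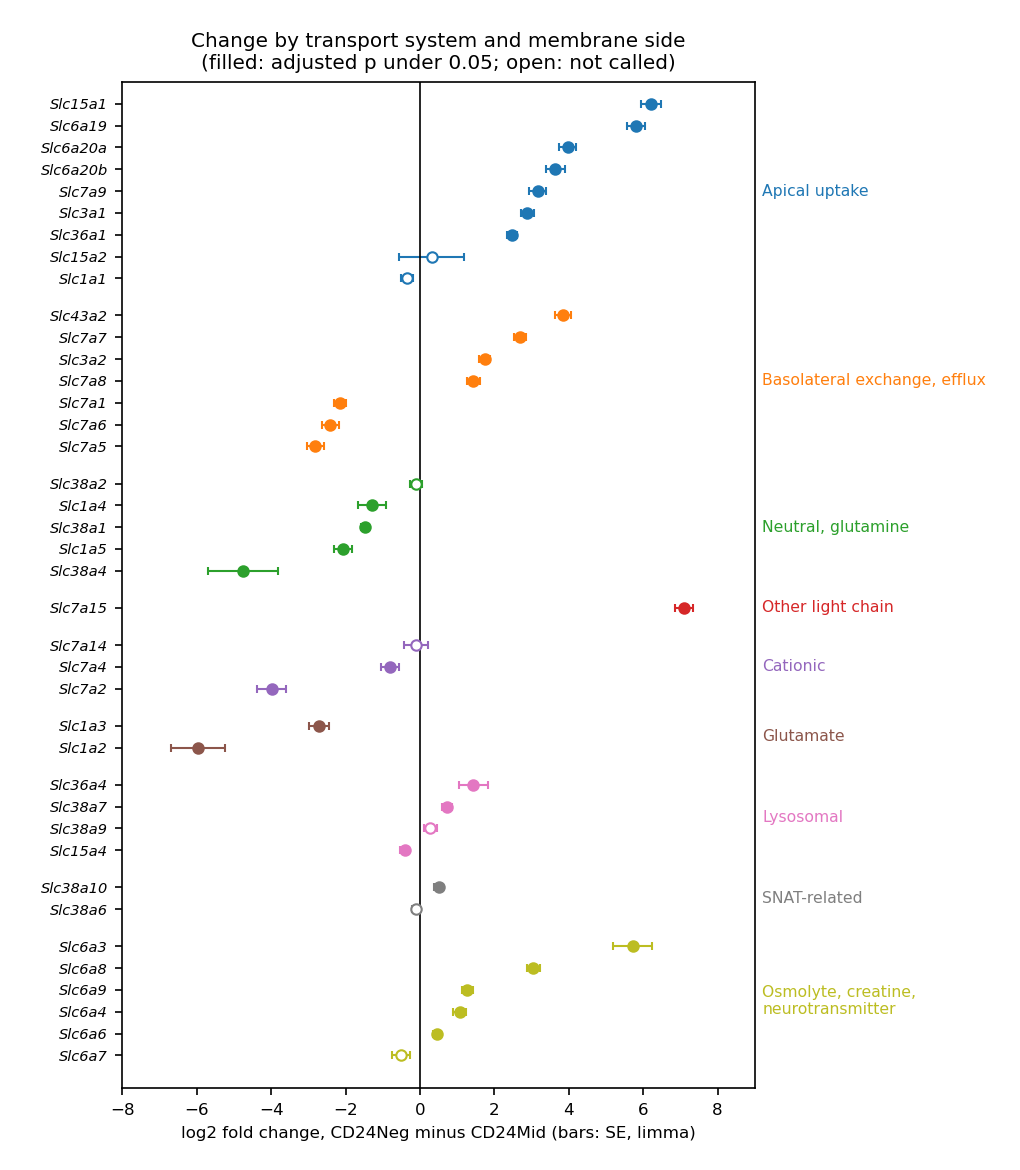
Log2 fold change of each transcript (CD24Neg minus CD24Mid) with its SE from limma, grouped by transport system and membrane side. Slc38a4, Slc1a2 and Slc6a3 passed the filter through the fraction in which they are high. Filled points passed an adjusted p of 0.05. Among filled points, 7 of 9 apical genes lie to the right and 4 of 5 neutral and glutamine carriers to the left. Filled basolateral genes lie on both sides.

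Apical uptake genes were higher in CD24Neg in 7 of 9 tested cases, and none was lower (median log2 fold change 3.16). Over all tested genes 34% were higher and 34.3% lower, with a median of -0.02. Slc15a1 (ENSMUSG00000025557) encodes the proton-coupled carrier of dipeptides and tripeptides. Its values were 88.4, 62.3, 74.8 and 60.0 in CD24Mid and 3625, 5524, 9269 and 4015 in CD24Neg, a 73.6-fold difference (log2 6.20, SE 0.27, limma adjusted p = 1.84e-07). Every CD24Neg library lay far above every CD24Mid library, and CD24Neg library 6 was the highest.

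Slc6a19 (ENSMUSG00000021565), the main sodium-driven carrier of neutral amino acids at the brush border, had 251, 158, 119 and 117 in CD24Mid and 7017, 8586, 11634 and 7693 in CD24Neg. It was 55.8-fold higher in CD24Neg (log2 5.80, SE 0.25, limma adjusted p = 1.81e-07), with no overlap. Slc6a20a (ENSMUSG00000036814), which carries proline and other imino acids, had 812, 402, 442 and 447 against 7458, 8310.2, 10218 and 6266. That was 15.7-fold higher, although CD24Mid library 1 stood far above the other CD24Mid libraries. It shares 563 exon bases with the antisense gene Gm17120 (means of 13.5 and 202). Its neighbouring copy Slc6a20b (ENSMUSG00000025243) was far lower in level, with 33.9, 17.8, 27.8 and 31.3 against 278, 365, 505 and 268, and 12.5-fold higher in CD24Neg. Slc6a20b shares 1800 exon bases with Sacm1l on the opposite strand, at a mean of 959 in CD24Mid and 1552 in CD24Neg, and strand is not stated for the counting. How its reads were divided from those of Sacm1l and of Slc6a20a is therefore uncertain.

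The cystine and cationic amino acid exchanger of the brush border is a dimer of the heavy chain Slc3a1 and the light chain Slc7a9. Slc3a1 (ENSMUSG00000024131) had 514, 327, 415 and 405 in CD24Mid and 2406, 3228, 3929.7 and 2785 in CD24Neg, a 7.40-fold difference (log2 2.89, SE 0.17, limma adjusted p = 5.71e-07). Slc7a9 (ENSMUSG00000030492) had 949.9, 391, 439 and 556 against 5271, 4512, 4868 and 5057 and was 8.96-fold higher (log2 3.16, SE 0.24, limma adjusted p = 1.82e-06). The CD24Mid libraries spread widely for Slc7a9, library 1 being the highest, while the CD24Neg libraries lay close together. Slc3a1 shares 601 exon bases with Prepl on the opposite strand, whose means were 553 and 546.

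Slc7a15 (ENSMUSG00000020600), a light chain known as a carrier preferring aromatic amino acids, showed the greatest fold of the 39 transcripts. It had 18.3, 19.0, 14.8 and 16.2 in CD24Mid and 1772, 2347, 4036 and 1962 in CD24Neg, a 137-fold difference (log2 7.10, SE 0.24, limma adjusted p = 1.25e-07). No CD24Mid library came near any CD24Neg library. Slc36a1 (ENSMUSG00000020261), a proton-driven carrier of small neutral amino acids found at the apical membrane and in lysosomes, had 322, 295, 320.5 and 323 against 1395, 1694, 2181 and 1838. It was 5.56-fold higher (limma adjusted p = 3.31e-07), and its CD24Mid libraries were nearly equal.

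Promoter sequence is shown for 5 carriers that were higher in CD24Neg, on both membrane sides. They were chosen because their windows hold GTTAAT, 1 of the motif cores searched. RefSeq windows (GRCm38.p6, 250 bases before to 50 after a start) matched 31 of the 39 genes in 44 windows, and 18 of those 31 genes were higher, 7 lower and 6 not called. Motif cores searched on both strands were the HNF1 core written as GTTAAT, the HNF4 core written as CAAAGTC, the GATA core written as AGATAA, the CDX core written as TTTATG, the core of the amino acid response element written as TGATGNAA and the E-box written as CACGTG, each counted on its own, so that matches could share bases. GTTAAT stood in 5 of the 44 windows (11.4%) and in 7.1% of all 32851 windows, and its 5 genes were all among those called higher. The others stood in 2 windows (4.55%, against 4.44% of all), 6 (13.6%, against 11.2%), 1 (2.27%, against 11.9%), 3 (6.82%, against 3.97%) and 4 (9.09%, against 7.15%). The 5 windows with GTTAAT or its reverse complement follow, 5′ to 3′ along the gene, with the match in capitals; that of Slc7a7 is 1 of several windows of this gene. The deposited values were made on another build, NCBIM37, and a match is no evidence of binding.
Slc3a1, chr17:85028097-85028396, plus strand: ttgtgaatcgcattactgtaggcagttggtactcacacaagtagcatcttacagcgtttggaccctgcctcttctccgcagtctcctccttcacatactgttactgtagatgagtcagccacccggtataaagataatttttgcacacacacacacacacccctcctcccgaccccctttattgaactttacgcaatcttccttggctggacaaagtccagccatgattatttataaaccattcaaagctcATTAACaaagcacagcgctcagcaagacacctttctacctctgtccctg
Slc7a15, chr12:8599017-8599316, minus strand: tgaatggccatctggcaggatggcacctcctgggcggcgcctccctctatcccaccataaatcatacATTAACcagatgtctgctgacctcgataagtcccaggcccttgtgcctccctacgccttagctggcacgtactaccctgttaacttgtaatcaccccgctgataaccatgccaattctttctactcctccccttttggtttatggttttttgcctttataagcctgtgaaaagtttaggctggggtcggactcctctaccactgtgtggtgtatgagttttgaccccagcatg
Slc6a20a, chr9:123678783-123679082, minus strand: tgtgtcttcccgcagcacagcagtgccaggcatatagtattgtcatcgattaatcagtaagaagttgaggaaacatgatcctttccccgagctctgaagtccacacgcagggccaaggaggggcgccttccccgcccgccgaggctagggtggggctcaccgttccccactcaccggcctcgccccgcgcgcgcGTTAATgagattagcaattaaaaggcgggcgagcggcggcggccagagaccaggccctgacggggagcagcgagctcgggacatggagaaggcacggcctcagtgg
Slc36a1, chr11:55204090-55204389, plus strand: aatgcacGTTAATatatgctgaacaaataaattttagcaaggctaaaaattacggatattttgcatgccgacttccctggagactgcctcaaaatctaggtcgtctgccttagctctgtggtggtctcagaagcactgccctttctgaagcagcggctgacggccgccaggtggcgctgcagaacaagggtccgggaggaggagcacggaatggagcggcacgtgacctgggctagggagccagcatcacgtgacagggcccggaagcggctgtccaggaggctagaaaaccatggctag
Slc7a7, chr14:54409423-54409722, minus strand: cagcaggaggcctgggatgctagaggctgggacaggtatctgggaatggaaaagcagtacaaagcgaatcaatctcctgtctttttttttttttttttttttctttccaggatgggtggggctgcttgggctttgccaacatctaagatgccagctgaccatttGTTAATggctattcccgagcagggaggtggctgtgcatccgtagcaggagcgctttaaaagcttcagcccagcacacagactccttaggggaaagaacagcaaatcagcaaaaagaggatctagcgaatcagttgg

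The remaining tested apical genes did not pass. Slc1a1 (ENSMUSG00000024935), the sodium-driven carrier of glutamate and aspartate at the brush border, had 1693, 1230.1, 1583 and 1489 in CD24Mid and 1408, 1030.3, 971 and 1323 in CD24Neg (log2 -0.35, SE 0.15, limma adjusted p = 0.0585). The ranges overlapped, and all CD24Neg libraries lay below CD24Mid libraries 1, 5 and 7. It shares 2631 exon bases with 4430402I18Rik on the opposite strand, a gene at means of 11.1 and 38.2. It passed as lower in 7 of 18 alternatives, among them the fit without CD24Neg library 2 (log2 -0.42, limma adjusted p = 0.028) and that without CD24Mid library 3 (log2 -0.45, limma adjusted p = 0.0264). Over the 18 its limma adjusted p ran from 0.00142 to 1. Slc15a2, a peptide carrier of higher affinity best known from kidney, had 69.1, 204, 17.4 and 66.7 against 104, 256, 16.3 and 88.8 (log2 0.31, SE 0.86, limma adjusted p = 0.763). Both fractions spanned more than the difference between them.

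Basolateral genes moved in both directions, with 4 of 7 tested higher and 3 lower in CD24Neg (median log2 fold change 1.43). All tested genes did so too, with 34% higher and 34.3% lower, so this is not particular to basolateral carriers. Slc3a2 (ENSMUSG00000010095), the heavy chain of the basolateral exchangers, had 1952, 1459.7, 1379 and 1431 in CD24Mid and 4947, 5175, 6308 and 4293 in CD24Neg. It was 3.33-fold higher (log2 1.74, SE 0.15, limma adjusted p = 4.25e-06) with no overlap. Among its light chains, Slc7a7 (ENSMUSG00000000958), which releases cationic amino acids to the blood in exchange for neutral ones, had 849, 570.2, 588 and 575 against 4216, 3979, 4843 and 3469.7 and was 6.44-fold higher (limma adjusted p = 4.3e-07). It shares 232 exon bases with Oxa1l on the opposite strand, whose means were 1401 and 1048. Slc7a8 (ENSMUSG00000022180), an exchanger of neutral amino acids, was already high in CD24Mid, with 2649.7, 1916, 2266 and 1942 against 5458, 5817, 8036 and 4596, and was 2.69-fold higher (limma adjusted p = 4.93e-05).

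Slc43a2 (ENSMUSG00000038178), a facilitated carrier of branched-chain amino acids, phenylalanine and methionine, had 996, 555, 646 and 844 in CD24Mid and 8724, 10232, 15504 and 9436 in CD24Neg. The difference was 14.4-fold (log2 3.85, SE 0.22, limma adjusted p = 4.37e-07), and CD24Neg library 6 was again the highest. The related Slc43a1 stayed below the filter, over 5.13 to 15.8 (CD24Mid) and 0 to 5.01 (CD24Neg).

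The other light chains of Slc3a2 went the opposite way. Slc7a5 (ENSMUSG00000040010), the exchanger that supplies leucine and other large neutral amino acids to growing cells, had 356, 325, 367 and 415 in CD24Mid and 56.4, 57.2, 32.0 and 67.9 in CD24Neg. It was 7.03-fold lower in CD24Neg (log2 -2.81, SE 0.22, limma adjusted p = 2.63e-06), with every CD24Neg library below every CD24Mid library. Slc7a6 (ENSMUSG00000031904), which like Slc7a7 exchanges cationic for neutral amino acids, had 188, 235, 219 and 197 against 49.5, 31.9, 27.7 and 52.1 and was 5.32-fold lower (limma adjusted p = 8.03e-06). The arginine and lysine carrier Slc7a1 (ENSMUSG00000041313), which needs no heavy chain, had 2192, 2024, 2302 and 2734 against 507, 524, 389 and 689 and was 4.45-fold lower (log2 -2.15, SE 0.17, limma adjusted p = 2.28e-06). The B and plasma cell markers named above were higher in CD24Mid as well, and their part in these differences was not tested.

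**Figure D3:**
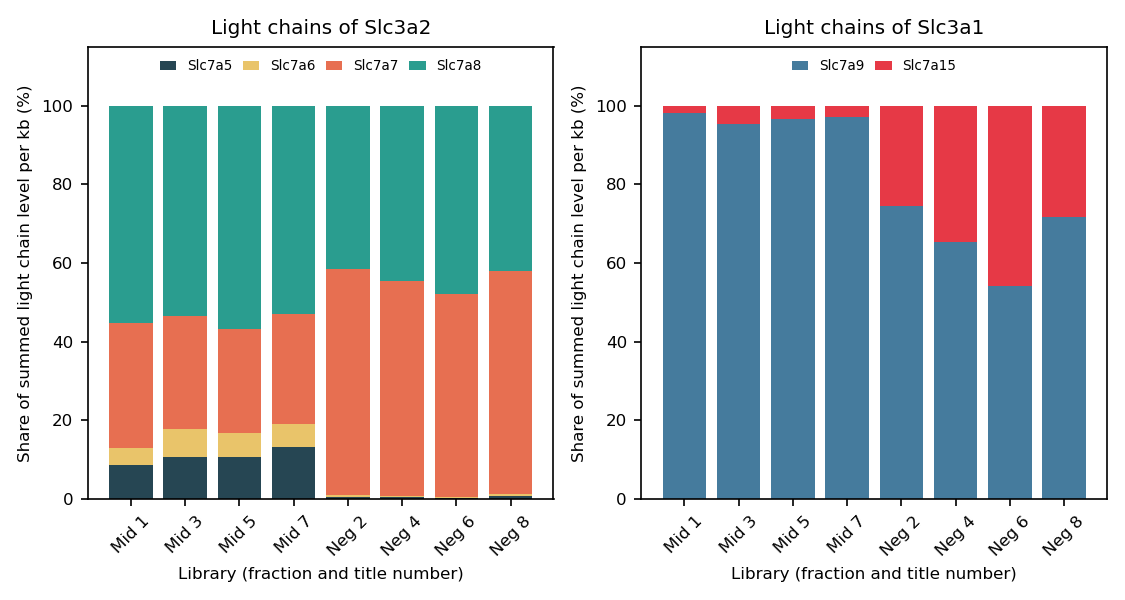
Share of each light chain in the summed level per kilobase of the light chains listed, in each library, for the heavy chain Slc3a2 (left) and the heavy chain Slc3a1 (right). Slc7a5 and Slc7a6 together fill the lowest bands in the 4 CD24Mid libraries and nearly vanish in CD24Neg, and the share of Slc7a15 is larger in every CD24Neg library than in any CD24Mid library.

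Divided by transcript length, the light chains could be set against each other within a library. Of the summed level per kilobase of the 4 Slc3a2 light chains, Slc7a8 made up 54.7% ± 1.77 in CD24Mid and 44.0% ± 2.91 in CD24Neg, and Slc7a7 made up 28.7% ± 2.22 and 55.2% ± 2.61 (SD, n = 4). Slc7a5 went from 10.8% ± 1.85 to 0.487% ± 0.205 and Slc7a6 from 5.82% ± 1.19 to 0.344% ± 0.15. The summed light chain level over the level of Slc3a2 itself, both per kilobase, was 1.78 ± 0.143 in CD24Mid and 1.79 ± 0.0492 in CD24Neg, a difference smaller than the SD of either fraction. For Slc3a1, Slc7a15 made up 1.92 to 4.72% of the 2 light chains in CD24Mid and 25.5 to 45.8% in CD24Neg, and the rest was Slc7a9. Summed over these 2 light chains, the same ratio to Slc3a1 was 1.65 ± 0.399 in CD24Mid and 2.9 ± 0.411 in CD24Neg. Those ranges did not overlap (1.28 to 2.21 against 2.5 to 3.44). Slc7a15 was counted for Slc3a1 alone. The length is that of the longest GENCODE M21 basic transcript, so these shares shift if the cells use shorter transcripts.

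Ratios of transcripts within each library do not depend on scaling between libraries, and 10 such ratios were compared with an exact two-sided permutation test, whose smallest possible p with 4 against 4 is 0.0286. Each ratio given here that did not overlap between fractions had this p (adjusted p = 0.0358 over the 10). Slc7a7 to Slc3a2 was 1.93-fold higher in CD24Neg (mean log2 ratio -1.28 ± 0.072 against -0.33 ± 0.071, SD), and Slc7a7 to Slc7a5 was 45.2-fold higher. Slc7a5 to Slc3a2 was 23.4-fold lower and Slc7a8 to Slc3a2 was 1.24-fold lower. Slc15a1 to Slc15a4, the peptide carrier of the brush border against that of lysosomes, was 98.1-fold higher. Slc1a1 to Slc1a5 was 3.3-fold higher and Slc38a2 to Slc38a1 was 2.59-fold higher. In Slc7a7 to Slc7a5, Slc7a5 to Slc3a2 and Slc15a1 to Slc15a4, the genes of each pair differed in opposite directions without overlap. Such ratios could not overlap, so their p was fixed by the single genes and adds nothing to them.

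For the apical dimer the unpaired test of its proportion did not pass. Slc7a9 to Slc3a1 had log2 ratios of 0.89, 0.25, 0.08 and 0.46 in CD24Mid and 1.13, 0.48, 0.31 and 0.86 in CD24Neg (difference 0.28, exact permutation p = 0.257, adjusted p = 0.257). These ranges overlapped, but between libraries with adjacent title numbers the ratio was higher in CD24Neg each time, by 0.25, 0.23, 0.23 and 0.4. Slc6a20a to Slc6a20b also overlapped (difference 0.33, exact permutation p = 0.2, adjusted p = 0.222), with adjacent differences of 0.18, 0.05, 0.37 and 0.73. The labels do not say that adjacent numbers are pairs, and with 4 pairs no two-sided exact permutation p can be below 0.125.

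**Figure D4:**
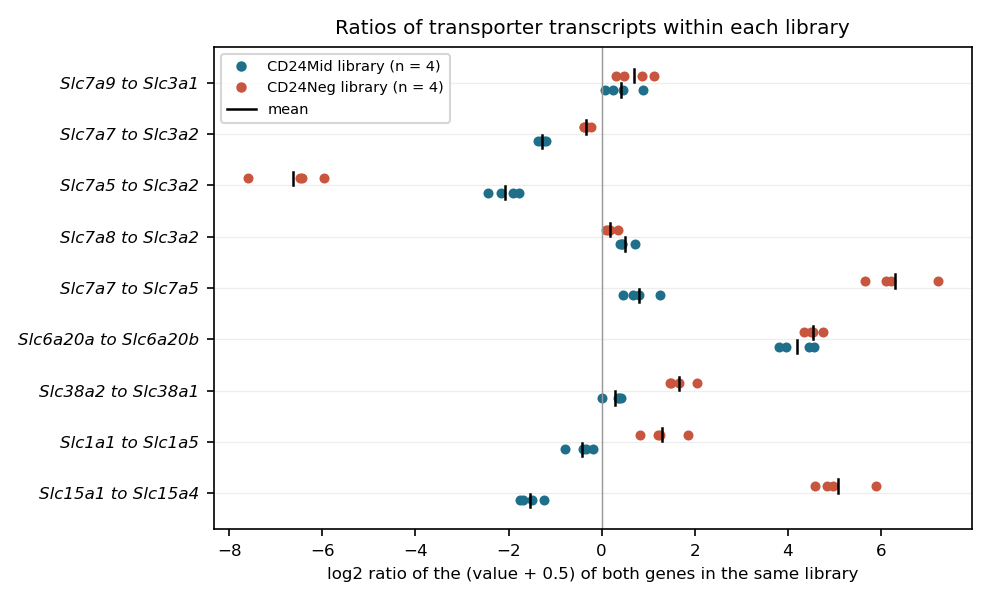
Log2 ratio of 2 transcripts in the same library, for 9 pairs of genes. Blue points are CD24Mid libraries, red points CD24Neg libraries and black bars the means; of the pairs drawn, only Slc7a9 to Slc3a1 and Slc6a20a to Slc6a20b overlap between the fractions.

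Beside the 8 families, a partner protein and a carrier of another family were examined. Cltrn, which serves Slc6a19 in kidney, ranged over 2.13 to 4.99 (CD24Mid) and 1.29 to 5.61 (CD24Neg), below the filter. Slc16a10, a basolateral carrier of aromatic amino acids from another family, was 4.28-fold higher (883 ± 59.8 against 4032 ± 1786, limma adjusted p = 3.33e-05).

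Carriers of glutamine and other neutral amino acids outside these dimers were lower in CD24Neg in 4 of 5 tested cases and never higher (median log2 fold change -1.48). Of all tested genes 34.3% were lower, and the 4 include Slc38a4, which passed the filter through its high fraction. Slc1a5 (ENSMUSG00000001918), a sodium-dependent exchanger that brings in glutamine, had 2228, 2121, 1806 and 1891 in CD24Mid and 591, 579, 267 and 566 in CD24Neg. It was 4.20-fold lower (log2 -2.07, SE 0.24, limma adjusted p = 2.87e-05), and CD24Neg library 6 was the lowest by a wide gap. Slc1a4 (ENSMUSG00000020142), a related exchanger of alanine, serine and cysteine, had 45.2, 49.5, 45.5 and 52.1 against 28.3, 33.0, 9.38 and 15.5 (log2 -1.29, SE 0.38, limma adjusted p = 0.0115). No ranges overlapped, and the call ended only against a fold change of 1.5.

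Slc38a1 and Slc38a2 are sodium-driven carriers that accumulate glutamine and other small neutral amino acids, and they differed in behaviour. Slc38a1 (ENSMUSG00000023169) had 1503, 1494, 1900.3 and 1821 in CD24Mid and 619, 663, 577 and 544 in CD24Neg and was 2.79-fold lower (limma adjusted p = 2.13e-06). Slc38a2 (ENSMUSG00000022462), which amino acid shortage is known to induce, had 1920.0, 1507, 2475 and 2444 against 1735, 1824, 1821 and 2265, with overlapping ranges (log2 -0.11, SE 0.17, limma adjusted p = 0.591). It passed as lower under the 3 other scalings, with a log2 fold change down to -0.57. Slc38a4, a relative of both best known from liver, had 25.8, 55.7, 48.4 and 29.9 in CD24Mid and 0, 12.1, 0.778 and 0 in CD24Neg, the latter at or near 0 except in library 4, so no fold is given. It too passed the filter through its high fraction, and its call supports nothing.

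Further carriers of cationic amino acids and of glutamate were also lower or not called. Of 4 tested cationic carriers 3 were lower and none higher (median -1.48), Slc7a1 among them. Slc7a1 was also counted among the lower basolateral genes, so these counts are not separate. Of 3 tested glutamate carriers 2 were lower (median -2.72), Slc1a3 and Slc1a2, and the call of Slc1a2 was set largely by the filter. The other, Slc1a1, was counted with the apical genes as well. Of all tested genes 34.3% were lower. Slc7a2, a cationic amino acid carrier inducible in macrophages and liver, had 135, 185, 230.0 and 174 in CD24Mid and 6.49, 22.7, 7.16 and 12.2 in CD24Neg, a 15.9-fold lower level (limma adjusted p = 7.97e-06). CD24Neg libraries 2 and 6 lay below the filter value of 10, the lowest at an estimated 3.67 reads. The size of this fold is therefore imprecise. Slc7a4, whose transport activity is unsettled, had 250.4, 258, 235 and 211 against 187, 191, 86.4 and 112 (log2 -0.80, limma adjusted p = 0.0155). That call ended with no filter on low values (limma adjusted p = 0.056) and against a fold change of 1.5, among alternatives with a limma adjusted p from 0.00135 to 0.405. Slc7a14, a lysosomal member of the cationic group, stayed between 10.1 and 19.0 in all 8 libraries (log2 -0.10, limma adjusted p = 0.791).

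Slc1a3 and Slc1a2 are glutamate carriers best known from glia. Slc1a3 had 392, 609, 552 and 397 in CD24Mid and 46.4, 109, 62.3 and 87.2 in CD24Neg, a 6.57-fold lower level (log2 -2.72, SE 0.27, limma adjusted p = 9.85e-06). Slc1a2 had 149, 125, 315 and 53.8 against 2.16, 0.011, 3.95 and 2.86, within a few reads of 0 in CD24Neg, so no fold is given and its call, set largely by the filter, supports nothing. Its CD24Mid values spread widely, library 5 being the highest and library 7 the lowest. The 4 neuron and glia markers summed to 21.1 to 38.3 (CD24Mid) and 1.12 to 10.1 (CD24Neg), and S100b among them was near 0 (0.48 ± 0.449 and 0.572 ± 0.662). Their part, and that of the enteroendocrine cells whose markers were higher in CD24Mid, was not tested.

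Carriers of lysosomes and other organelles were mixed, with 3 of 5 tested higher, 1 lower and 1 not called (median log2 fold change 0.73). Slc36a1, given above and counted with the apical genes as well, was among the 3. Calls were mixed over all tested genes too, with 34% higher and 34.3% lower, and 5 genes are few to compare with that. Slc36a4, a related carrier, had 9.52, 14.8, 12.3 and 21.6 in CD24Mid and 48.8, 63.7, 22.9 and 30.4 in CD24Neg (log2 1.43, SE 0.39, limma adjusted p = 0.00788), a call that ended only against a fold change of 1.5. Slc38a7, a lysosomal carrier that exports glutamine, had 225, 207, 226 and 187 against 353, 389.8, 378 and 289 and was 1.66-fold higher (limma adjusted p = 0.000573), a call that ended under scaling to totals without mitochondrially encoded genes (log2 0.27). Slc15a4, which carries histidine and peptides out of lysosomes, had 209.9, 211, 211 and 194 against 151, 175, 156 and 139.9 and was 1.33-fold lower (limma adjusted p = 0.0105). This call ended under quantile normalization (limma adjusted p = 0.118) and without CD24Neg libraries 2 and 8 (limma adjusted p = 0.0906), among 18 alternatives whose limma adjusted p ran from 6.99e-05 to 1.

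Slc38a9, the lysosomal arginine sensor that signals to the growth kinase mTORC1, had 79.5, 86.5, 85.5 and 88.1 in CD24Mid and 96.5, 84.8, 99.2 and 135 in CD24Neg (log2 0.27, SE 0.18, limma adjusted p = 0.195). The ranges overlapped, the sign turned under both scalings to totals (log2 -0.16 and -0.19), and under quantile normalization it passed as higher (log2 0.54, limma adjusted p = 0.0167, where the alternatives ran from 0.0167 to 1). Slc38a10, a carrier of less settled role, had 1866, 1552, 1599 and 1623 against 2016, 2625, 2581 and 2188 (log2 0.50, limma adjusted p = 0.00301), a call that ended under the 3 other scalings. Slc38a6, whose role is likewise less settled, had 3419, 3731, 3790.5 and 4032 against 3099, 3744, 3512 and 3601, with overlap (limma adjusted p = 0.382), and it passed as lower under those scalings.

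Members of the Slc6 family that carry creatine, taurine, glycine, proline or monoamines were higher in 5 of 6 tested cases, where 34% of all tested genes were. Among the 5, Slc6a3 passed the filter through its high fraction, and the call of Slc6a6 ended under other scalings. Slc6a8 (ENSMUSG00000019558), the creatine carrier, had 1403, 889.8, 927 and 1086 in CD24Mid and 7179, 9056, 11026 and 8243 in CD24Neg. It was 8.28-fold higher (log2 3.05, SE 0.17, limma adjusted p = 4.24e-07), with no overlap. Slc6a4, the serotonin carrier, which clears serotonin released by enterochromaffin cells, had 883, 586, 556 and 472 against 1490.0, 1142, 1339 and 1138 and was 2.09-fold higher (limma adjusted p = 0.000481). Slc6a9, a glycine carrier, had 123, 127, 96.4 and 106 against 299.5, 307, 256 and 234 and was 2.42-fold higher, but it shares 1429 exon bases with Ccdc24 on the opposite strand (means of 3.15 and 5.59).

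Slc6a6, the taurine carrier, had 2199, 1812, 2072 and 2306 in CD24Mid and 2675, 2992, 3235 and 2605 in CD24Neg, a 1.37-fold difference (limma adjusted p = 0.00448) that fell to a log2 of -0.01 under quantile normalization and under scaling without mitochondrially encoded genes. Slc6a3, the dopamine carrier, had 0.448, 0.464, 0 and 0.392 in CD24Mid, at most 1 estimated read, and 28.0, 77.9, 52.6 and 26.5 in CD24Neg, so no fold is given and its call, set largely by the filter, supports nothing. Slc6a7, a proline carrier best known from brain, had 222, 161, 160.2 and 118 against 175, 93.3, 101 and 96.9 with overlap (log2 -0.51, limma adjusted p = 0.0911). Without CD24Neg library 2, its highest, it passed as lower (log2 -0.71, limma adjusted p = 0.0131), and without CD24Mid library 7, its lowest, likewise (log2 -0.67, limma adjusted p = 0.0416). Over 18 alternatives its limma adjusted p ran from 0.00549 to 0.985.

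The order of levels per kilobase differed between the fractions. In CD24Mid the first places were held by Slc38a6 at 953 ± 64.3, Slc1a5 at 728 ± 71.0, Slc3a2 at 553 ± 94.6 and Slc7a8 at 537 ± 84.1 (level per kb, SD, n = 4), where Slc3a2 and Slc7a8 did not differ beyond their SD. In CD24Neg they were held by Slc7a9 at 2540.0 ± 166, Slc6a8 at 2239 ± 410.3, Slc6a19 at 2219 ± 518 and Slc6a20a at 2071 ± 427, which lay within an SD of their neighbours in this order. Slc6a19 went from rank 26 to rank 3, Slc15a1 from 29 to 7 and Slc7a15 from 35 to 11, while Slc1a5 went from 2 to 19, Slc7a1 from 9 to 23 and Slc7a5 from 19 to 30.

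Single libraries set the extremes within each fraction. Of the 20 genes higher in CD24Neg, 13 had their CD24Neg maximum in library 6 and 0 in library 8, and of the 12 lower genes 6 had their CD24Neg minimum in library 6. Library 6 had the greatest estimated depth, the lowest summed goblet markers and a leukocyte marker sum of 1328. In CD24Mid, 13 of the 20 had their maximum in library 1, which had the lowest enteroendocrine and the highest goblet marker sum of its fraction. The part of these differences was not tested, and leaving out either library kept 20 higher and 12 lower calls.

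The 21 genes with the symbol rule but below the filter were not tested. Slc7a11, the light chain of the cystine and glutamate exchanger, ranged over 5.49 to 7.51 (CD24Mid) and 2.92 to 9.16 (CD24Neg). Slc6a14, a carrier of neutral and cationic amino acids inducible in inflamed colon, was at 0.413 to 3.92 and 0.745 to 12.2. Slc38a8 had 0 to 0.474 and 9.99 to 25.3, and Slc6a18, a kidney relative of Slc6a19, had 0 to 1.10 and 1.44 to 16.2. Slc38a11 had 4.24 to 17.6 and 0 to 4.81. Apart from Slc43a1, given above, the others were at 12.7 or less in every library and included Slc15a3, Slc15a5, Slc1a7, Slc36a2, Slc38a3, Slc38a5, Slc43a3, Slc6a12, Slc6a13, Slc6a15, Slc6a21, Slc6a5, Slc7a10 and Slc7a3.

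Genes that respond to amino acid supply split in both directions. Of 21 tested genes of the amino acid response directed by the transcription factor Atf4, 7 were higher in CD24Neg, 8 lower and 6 not called, a share of calls close to the 68.3% of all tested genes. Phgdh, which begins serine synthesis, had 431 ± 68.8 in CD24Mid and 36.6 ± 11.9 in CD24Neg (log2 -3.59, limma adjusted p = 1.16e-06), and Shmt2, a mitochondrial serine hydroxymethyltransferase, had 957 ± 125 against 224 ± 41.3 (limma adjusted p = 1.32e-06). Trib3, a pseudokinase induced by stress, went the other way with 5.66 ± 3.08 against 146 ± 22.4 (log2 4.67, limma adjusted p = 1.28e-06). Named after their values were seen, the asparagine synthetase gene Asns was lower (565 ± 82.8 against 267 ± 28.3) and the stress factor gene Ddit3 was higher (138 ± 24.1 against 580.1 ± 126). Atf4 itself had 2739 ± 301 against 3716 ± 571 with overlapping ranges (log2 0.43, limma adjusted p = 0.0148), a difference smaller than the shift that scaling without mitochondrially encoded genes gave the median of all genes.

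Of 27 tested genes of lysosomal amino acid sensing, which links amino acids to mTORC1, 10 were higher, 5 lower and 12 not called, a smaller share of calls than the 68.3% over all tested genes. Castor2, of the arginine sensor family, had 52.6 ± 11.8 in CD24Mid and 1002 ± 266 in CD24Neg (log2 4.22, SE 0.22, limma adjusted p = 3.18e-07). Sesn1, of the leucine sensor family, was 3.86-fold higher (749.7 ± 95.7 against 2892 ± 375). Seh1l, a subunit of the complex GATOR2 and of the nuclear pore, was lower (1409 ± 139 against 706 ± 76.6, limma adjusted p = 2.79e-05). The kinase gene Mtor, named likewise after its values were seen, was at 926 ± 73.4 against 1038 ± 44.5 and did not pass (limma adjusted p = 0.129).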

How the data were processed

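Total RNA of 4 CD24Mid and 4 CD24Neg samples was turned into libraries with a TruSeq kit, as the labels' protocols state. Each deposited file gives 1 signal value per gene, an expression estimate that, as the values show, is already on a common scale across libraries. Bowtie 0.12.8 and the build NCBIM37 stand in the submitters' processing notes; the names of the deposited files carry that of MMSEQ, an expression estimator, and the sources used here do not give its version, the annotation release, strand setting or scaling. Whole reads could not be restored, so no count model was used.

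Symbols came by Ensembl identifier from GENCODE M21, which matched 21223 of 23318. Values were centred on the median ratio (factors 1.0102 to 1.0104), and log2(value + 0.5) of genes at 10 or more in at least 4 libraries was fitted in limma 3.58.1 (R 4.3.3; eBayes with trend and robust variance, 6 residual degrees of freedom) with Benjamini-Hochberg adjustment. The fit was tested on simulated data. Ratios used exact permutation tests in scipy 1.17.1. The transporters and all lists, with their sides of the membrane from textbook knowledge, and the set of genes given in every library, were chosen with earlier results of these data known. Further genes were named where a call changed under an alternative, where the change was among the 3 largest in a direction, or, in other lists, as the 3 with the smallest adjusted p. Alternatives were other scalings, pseudocounts of 0.1 and 1, no filter, limma without a trend, a test against a fold change of 1.5 and libraries left out. A block on adjacent title numbers was chosen after seeing the data. Some results are not reported here. Nothing says whether libraries share mice, so p-values measure the spread between these samples.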

Additional observations from a re-analysis of the deposited data

Results flagged for a closer look

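In 98 groups of 4 libraries (39 transcripts and 10 ratios in each fraction), 12 had a lowest or highest library set apart by a gap, as a share of the whole range, above Dixon's critical value; chance alone sets apart about 1 in 20 groups. CD24Mid library 1 was high for 3 transcripts: Slc7a7 at 849 (others 570.2 to 588), Slc3a2 at 1952 (others 1379 to 1459.7) and Slc6a20a at 812 (others 402 to 447). All 3 were higher in CD24Neg, and they stayed so without that library. In CD24Mid, library 3 was low for Slc36a1 at 295 (others 320.5 to 323) and for the log2 ratio of Slc38a2 to Slc38a1 at 0.01 (others 0.35 to 0.42). Library 5 was listed at 0 for Slc6a3 (others 0.392 to 0.464) and was high for the log2 ratio of Slc7a8 to Slc3a2 at 0.72 (others 0.39 to 0.44). Library 7 was low for Slc15a4 at 194 (others 209.9 to 211). In CD24Neg, library 6 was low for Slc1a5 at 267 (others 566 to 591), library 8 was high for Slc38a2 at 2265 (others 1735 to 1824), library 4 was high for Slc38a4 at 12.1 (others 0 to 0.778) and library 2 was high for Slc6a7 at 175 (others 93.3 to 101.4).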

How the results depend on the processing

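Of the 32 called transcripts, 25 kept their direction and their call in all 18 alternatives, 7 lost the call in at least 1, 2 of these 7 only when tested against a fold change of 1.5, and 1 (Slc6a6) turned its sign. Of the 7 not called, 5 passed in at least 1. The number called was 25 against a fold change of 1.5 (16 higher, 9 lower) and 31 to 34 otherwise, 17 to 20 of them higher. Scaling moved the medians. Under quantile normalization the apical median was 2.85 and the basolateral 0.94. With totals without the 20 most abundant genes they were 2.74 and 1, and the median of all 39 was 0.03. With totals without mitochondrially encoded genes they were 2.7 and 0.96, and that of all 39 was -0.01. Without CD24Neg libraries 2 and 8 the median of all 39 was 0.6 and the log2 ratio of Slc7a9 to Slc3a1 differed by -0.02, with CD24Mid libraries 1 and 7 kept (0.23 and 0.23 between adjacent numbers 3 and 4 and 5 and 6). With single libraries left out the apical median ran from 2.99 to 3.42, the latter without CD24Mid library 1. Signs turned for Slc6a6 (-0.01 under quantile normalization and -0.01 under totals without mitochondrially encoded genes), Slc38a9 (-0.16 and -0.19 under the scalings to totals, but 0.54 under quantile normalization), Slc15a2 (-0.11 and -0.15 there, and from -0.31 without CD24Mid library 5, with -0.25 without CD24Neg library 4, to 1.06 without CD24Neg library 6) and Slc7a14 (0.09 under quantile normalization, 0.07 without CD24Neg libraries 2 and 8, and from -0.24 without CD24Neg library 4 to 0.06 without CD24Neg library 8); the cause was not tested. The labels give the fractions no common replicate number; a replicate block on adjacent title numbers, chosen after seeing the data and not named as pairs in the labels, gave 34 calls (20 higher, 14 lower), with Slc1a1 (limma adjusted p = 0.0158) and Slc6a7 (limma adjusted p = 0.0127) added. Depth limits genes within a few reads of 0, such as Slc1a2, Slc38a4 and Slc6a3.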

Other observations

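Slc15a2 varied more within a fraction than between them, and its values ran alike in libraries with adjacent title numbers. They were 69.1 and 104 in libraries 1 and 2, 204 and 256 in libraries 3 and 4, 17.4 and 16.3 in libraries 5 and 6, and 66.7 and 88.8 in libraries 7 and 8. The labels do not say that such libraries share mice or a day. In the fit with a block on adjacent numbers, the SE of its log2 fold change of 0.31 was 0.19, where it was 0.86 without the block, and the difference still did not pass (limma adjusted p = 0.167). The likeness was noticed in the data and was not tested.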
